A study of Mus musculus with 9 samples.

Results

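The negative feedback inhibitors of Wnt signalling described here are 8 genes, Notum, Wif1, Dkk2, Apcdd1, Rnf43, Znrf3, Axin2 and Nkd1, taken by gene name from a table of 55401 entries in mouse colonic tissue. Each name matched 1 entry, and all 8 were among the 14506 genes tested, those averaging 1 FPKM or more (fragments scaled to transcript length and library size) over the 9 libraries. The libraries, all labelled wild type, fall into 3 groups of 3. A chow diet group and a high-fat diet group were both titled AOM/DSS, and the last group was labelled berberine, a plant alkaloid. AOM/DSS appears in the labels only as an abbreviation, which usually means azoxymethane, a carcinogen, given with dextran sulfate sodium, an irritant that causes colitis, to raise colon tumours in mice. The diet of the berberine group, whether it received AOM/DSS, the strain, sex, age and doses are not given in the sources used here. Nothing in the labels says that the libraries came from separate animals, so the p-values below measure only the spread between these libraries, which may be technical.

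Wnt proteins bind Frizzled receptors and the co-receptors Lrp5 and Lrp6, which stops a destruction complex from degrading beta-catenin. Beta-catenin then enters the nucleus and, with the factors Tcf7, Tcf7l1, Tcf7l2 and Lef1, switches on target genes that maintain stem cells at the base of the colonic crypt. Some of those targets are inhibitors of the same pathway, and they act at successive steps. Notum, Wif1 and Dkk2 are secreted, Apcdd1, Rnf43 and Znrf3 sit in the cell membrane, and Axin2 and Nkd1 work inside the cell. Transcripts of these genes are widely used as a readout of Wnt pathway activity in intestinal crypts and tumours.

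The depth was 51961764 to 69007117 estimated counts per library. Exactly 4 counts occurred 10067 times among the values of genes in libraries, and exactly 5 counts 2249 times. From this, 1 sequenced fragment seems worth about 4 counts, and the fragments given below are estimated counts divided by 4. A list of 10 general epithelial markers, among them Epcam and Vil1, summed to between 8920.8 and 13698.0 CPM (estimated counts scaled to a common library size with TMM factors) in the 9 libraries. Markers of other tissues were high in a few libraries. Chow replicate 3 held 1616.0 CPM of 9 tested striated muscle markers where the other libraries held 8.72 to 55.2. Chow replicate 1 held 353.3 CPM of 8 tested squamous epithelial markers, and the other chow libraries held 15.3 and 59.6. The high-fat diet libraries held 109.6 to 215.1 CPM of these squamous markers and the berberine libraries 14.8 to 34.3. Berberine replicates 1 and 2 held 828.4 and 700.4 CPM of 7 tested adipocyte markers against 74.7 in replicate 3. Leaving out any 1 of the 9 libraries left all 8 inhibitors past the threshold in both comparisons with the high-fat diet group. Over all genes, 3573 to 4325 then passed between high-fat diet and chow, against 4613 with every library. Between berberine and high-fat diet 2960 to 4740 passed, against 4460. Berberine replicates 1 and 2 shared high adipocyte markers, and every high-fat diet library had squamous markers above the berberine range. Leaving out 1 library cannot remove these, so the part of other tissues was not tested.

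Promoter sequences are shown for 3 of the 8 genes, because the inhibitors moved together and the letters CTTTG are the core of the motif that the Tcf and Lef factors bind. RefSeq (GRCm38.p6) gave a window for Axin2, Dkk2, Nkd1, Rnf43 and Wif1, and those of Notum, Znrf3 and Apcdd1 are not shown. The runs below are the plus strand, 5' to 3', upstream of the start site, with CTTTG in capitals where it occurs. They cover chr3:132085042-132085291 for Dkk2, chr10:121033754-121033959 for Wif1, whose run stops where the annotated gene begins, short of the RefSeq start site, and chr11:108920099-108920348 for Axin2.
Dkk2: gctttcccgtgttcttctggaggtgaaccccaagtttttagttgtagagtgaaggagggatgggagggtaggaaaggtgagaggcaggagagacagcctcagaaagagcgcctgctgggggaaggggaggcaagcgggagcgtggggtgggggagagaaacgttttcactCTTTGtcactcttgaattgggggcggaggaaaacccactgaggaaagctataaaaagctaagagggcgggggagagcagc
Wif1: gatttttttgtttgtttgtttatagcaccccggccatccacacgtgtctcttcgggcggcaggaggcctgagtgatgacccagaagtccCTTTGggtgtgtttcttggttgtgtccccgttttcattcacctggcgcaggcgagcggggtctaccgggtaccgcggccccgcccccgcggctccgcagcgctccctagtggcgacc
Axin2: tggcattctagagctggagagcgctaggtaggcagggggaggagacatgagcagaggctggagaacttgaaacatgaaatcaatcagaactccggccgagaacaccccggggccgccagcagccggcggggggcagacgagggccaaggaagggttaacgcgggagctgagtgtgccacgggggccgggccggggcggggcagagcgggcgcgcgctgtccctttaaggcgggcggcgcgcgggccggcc
In the 250 bases before the start site, read on both strands, Dkk2 held 1 CTTTG, 80 bases upstream, and Wif1 held 1, 161 bases upstream. Neither Axin2, Nkd1 nor either of the 2 RefSeq start sites of Rnf43 held one, and none of these windows held the longer CTTTGA, which contains CTTTG. Among all 32851 RefSeq windows of that length 48.6% held CTTTG and 13.8% held CTTTGA. The letters TATAAA lay 32 bases upstream in Dkk2 and, on the minus strand, 232 bases upstream in Wif1, and 12.4% of all windows held them. The windows also differed in base composition. That of Axin2 was 69.2% G or C with 24 CG pairs and that of Wif1 62.8% with 21, whereas Dkk2 had 55.6% with 7, Nkd1 58.4% with 6, and the 2 Rnf43 windows 44.4% with 8 and 45.2% with 2. The median window had 52.4% and 6 CG pairs. These matches describe letters and say nothing of binding.

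High-fat diet was compared with chow, which asks how the 2 diets differ in the colon under AOM/DSS. All 8 inhibitors were higher with high-fat diet, by between 5.24-fold for Znrf3 and 615.9-fold for Notum. Each passed edgeR's quasi-likelihood test at a Benjamini-Hochberg adjusted p under 0.05, and none had overlapping groups. Over all 14506 genes tested, 15.2% were called higher in this comparison, 31.8% were called in either direction, and 23.2% had every high-fat diet library above every chow library. Notum, Apcdd1 and Dkk2 reached a mean of 1 FPKM with high-fat diet alone, so they could enter the test only by being high there. Nkd1, Axin2, Rnf43 and Znrf3 had a mean above 1 FPKM in every group. The median log2 fold change was 4.24 over the 8 inhibitors and 0.002 over all genes tested. A high median was favoured in advance by Notum, Apcdd1 and Dkk2. Nkd1, Axin2, Rnf43 and Znrf3 lay between 2.39 and 4.05. In bulk tissue, fewer cells of a type and less RNA per cell cannot be told apart.

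Among the secreted inhibitors, Notum is an enzyme that removes the lipid from Wnt proteins so that they no longer bind Frizzled. Its gene (ENSMUSG00000042988, chr11:120653788-120661175, minus strand, GRCm38) was at 0.882, 0.396 and 0.162 CPM in the chow libraries and at 385.8, 225.3 and 276.2 CPM with high-fat diet. The chow values rest on 21.5 fragments over the 3 libraries, so the size of the fold change is poorly fixed, while the high-fat diet values rest on 14525.5. The mean rose from 0.48 ± 0.367 to 295.7 ± 82.0 CPM (SD, n = 3 in each group here and below), a log2 fold change of 9.27 ± 0.69 (SE) with an edgeR adjusted p of 0.00013. Without chow replicate 1 the log2 fold change was 10.08. It ranked 40 of the 14506 genes by fold change.

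Wif1 binds Wnt proteins outside the cell (ENSMUSG00000020218, chr10:121033960-121100650, plus strand). It stood at 4.21, 0.717 and 3.41 CPM in chow and at 1091.3, 415.4 and 351.0 CPM with high-fat diet, where replicate 1 was well above the other 2. The mean rose from 2.78 ± 1.83 to 619.2 ± 410.1 CPM, a log2 fold change of 7.79 ± 0.8 (edgeR adjusted p = 0.000398), and 7.09 without that library. Dkk2, of the Dickkopf family, binds the co-receptors Lrp5 and Lrp6 (ENSMUSG00000028031, chr3:132085292-132180304, plus strand). Its chow libraries were at 2.25, 4.51 and 0.723 CPM and its high-fat diet libraries at 68.4, 58.4 and 34.9 CPM. This was the least even of the 8 in chow, with the highest library 6.23 times the lowest. Dkk2 rose by a log2 of 4.44 ± 0.65 (edgeR adjusted p = 0.00171), or 5.19 without chow replicate 2.

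Of the membrane inhibitors, Apcdd1 is a glycoprotein that binds Wnt and Lrp5 at the cell surface (ENSMUSG00000071847, chr18:62922231-62961179, plus strand). It was at 5.93, 3.66 and 6.3 CPM in chow and at 400.9, 252.0 and 269.1 CPM with high-fat diet, a 58.0-fold rise (log2 5.86 ± 0.5, edgeR adjusted p = 0.000218). Rnf43 and Znrf3 are related ubiquitin ligases that remove Frizzled receptors from the membrane, and R-spondins block them. Rnf43 (ENSMUSG00000034177, chr11:87662722-87735539, plus strand) was at 34.6, 24.0 and 40.2 CPM in chow and at 183.6, 260.9 and 211.1 CPM with high-fat diet. Znrf3 (ENSMUSG00000041961, chr11:5276324-5444847, minus strand) was at 15.8, 8.41 and 13.2 CPM in chow and at 71.3, 65.3 and 59.9 CPM with high-fat diet. These 2 ligase genes had the smallest fold changes of the 8, with a log2 of 2.73 ± 0.23 for Rnf43 (edgeR adjusted p = 0.000197) and 2.39 ± 0.23 for Znrf3 (edgeR adjusted p = 0.000323). Znrf3 was also the most even within the high-fat diet group, with its highest library 1.19 times its lowest.

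Inside the cell, Axin2 is a scaffold of the destruction complex (ENSMUSG00000000142, chr11:108920349-108950783, plus strand). Its levels were 51.6, 40.1 and 21.7 CPM in chow and 300.0, 376.4 and 470.7 CPM with high-fat diet, a 10.1-fold rise (log2 3.34 ± 0.32, edgeR adjusted p = 0.000317). Nkd1, or naked cuticle 1, binds Dishevelled, the protein that relays the signal from Frizzled (ENSMUSG00000031661, chr8:88521354-88594884, plus strand). It was at 47.5, 33.8 and 45.9 CPM in chow and at 1030.0, 577.5 and 493.9 CPM with high-fat diet, a 16.5-fold rise (log2 4.05 ± 0.33, edgeR adjusted p = 0.00018). The lowest high-fat diet library of Nkd1 (493.9 CPM) was far above the highest chow library (47.5 CPM). By fold change the 8 genes ranked between 40 and 352 of the 14506 tested.

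**Figure D1:**
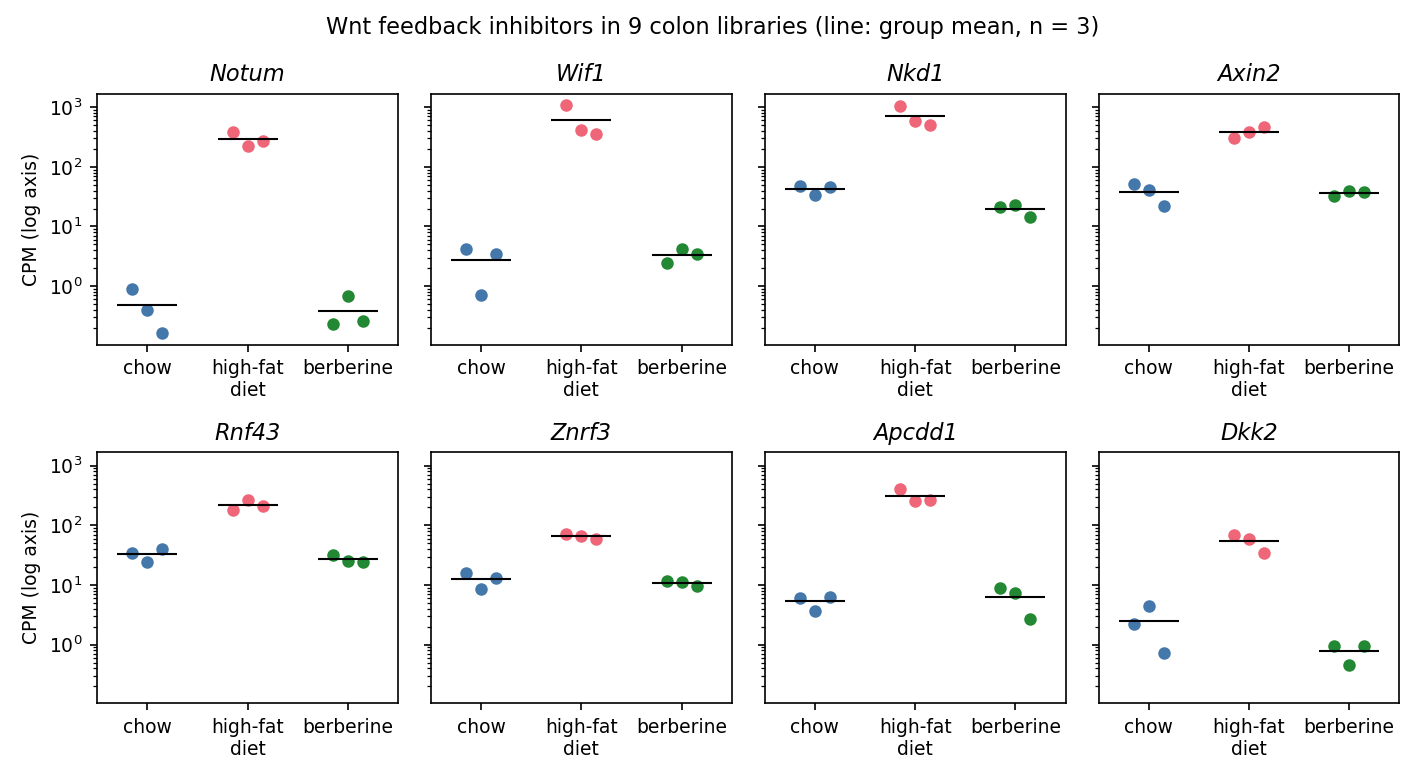
CPM of each of the 8 inhibitors in every library, on a log axis, with 1 point per library and a line at the group mean. The 3 high-fat diet libraries sit above all 6 chow and berberine libraries for each gene, with the widest gap for Notum, at 225.3 to 385.8 CPM against 0.162 to 0.882.

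The berberine group was next set against the high-fat diet group, with the same high-fat diet libraries as before, so these values are not independent of those above. All 8 inhibitors were lower in the berberine group, each past edgeR's adjusted threshold, and no groups overlapped. Over all genes tested 14.9% were called lower here and 25.6% had every berberine library below every high-fat diet library. The members' median log2 fold change was -5.38, against -0.007 over all genes. Notum, Apcdd1 and Dkk2 entered the test only by being high with high-fat diet, so their falls here were favoured in advance. The members' median shares that limit. Nkd1, Axin2, Rnf43 and Znrf3 lay between -5.17 and -2.59.

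Notum stood at 0.233, 0.67 and 0.264 CPM in the berberine libraries, a sum of 18.2 fragments, and was 760.8-fold lower than with high-fat diet (log2 -9.54 ± 0.7, edgeR adjusted p = 9.80e-05, and -10.2 without berberine replicate 2). Wif1 was at 2.46, 4.21 and 3.46 CPM with berberine and 183.3-fold lower (log2 -7.51 ± 0.79, edgeR adjusted p = 0.000437). Without high-fat diet replicate 1 its log2 fold change was -6.81. For Notum the berberine libraries lay within the range of the chow libraries, and for Wif1 they overlapped with it. Dkk2 was at 0.949, 0.462 and 0.939 CPM with berberine, from 34.2 fragments in all, a fall of 68.8-fold (log2 -6.11 ± 0.71, edgeR adjusted p = 0.000623).

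At the membrane, Apcdd1 was at 9.05, 7.44 and 2.65 CPM with berberine, 48.2-fold lower than with high-fat diet (log2 -5.59 ± 0.5, edgeR adjusted p = 0.000229). Rnf43 stood at 31.3, 25.0 and 24.1 CPM (log2 -3.03 ± 0.23, edgeR adjusted p = 0.000114). Znrf3 stood at 11.8, 11.1 and 9.67 CPM (log2 -2.59 ± 0.23, edgeR adjusted p = 0.00023). The ligases again had the smallest changes of the 8. Axin2 was at 32.5, 39.7 and 37.8 CPM with berberine, a tight group with an SD of 3.74 CPM, and 10.4-fold lower than with high-fat diet (log2 -3.38 ± 0.32, edgeR adjusted p = 0.000287). Nkd1 was at 21.1, 22.6 and 14.6 CPM and 36.1-fold lower (log2 -5.17 ± 0.35, edgeR adjusted p = 6.64e-05). Among all genes ordered from the lowest fold change, the 8 ranked between 29 and 348.

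Berberine against chow gave no call for any of the 8 inhibitors with edgeR, where 0.0483% of all genes were called in either direction (7 genes). Nkd1 and Dkk2 had an unadjusted edgeR p under 0.05, or 2 of the 8, against 10.9% of all genes. Nkd1 was 2.18-fold lower with berberine, at a mean of 19.4 ± 4.27 CPM against 42.4 ± 7.49, and every berberine library was below every chow library, as for 9.37% of all genes. Its log2 fold change was -1.13 ± 0.3, with an unadjusted p of 0.00464 and an adjusted p of 0.3 in edgeR. DESeq2's Wald test called it, at an adjusted p of 0.0199, in a fit that called 2.69% of the 14125 genes to which it gave an adjusted p. Dkk2 was at 0.783 ± 0.279 CPM with berberine against 2.49 ± 1.9 in chow, with overlapping libraries (log2 -1.67 ± 0.61, unadjusted p = 0.0234, adjusted p = 0.39, edgeR).

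The other 6 inhibitors had overlapping libraries in chow and berberine and log2 differences between -0.3 ± 0.21 for Rnf43 and 0.28 ± 0.62 for Wif1, with edgeR adjusted p between 0.651 and 0.97. Axin2 was the nearest to equal, at 37.8 ± 15.1 CPM in chow and 36.7 ± 3.74 with berberine (log2 -0.05 ± 0.29). A p that misses the threshold does not show equal levels, and the standard errors for Notum (-0.27 ± 0.61), Wif1 and Apcdd1 (0.27 ± 0.42) leave room for differences that these libraries could not detect. The median over the 8 genes was -0.23, against -0.002 over all genes.

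**Figure D2:**
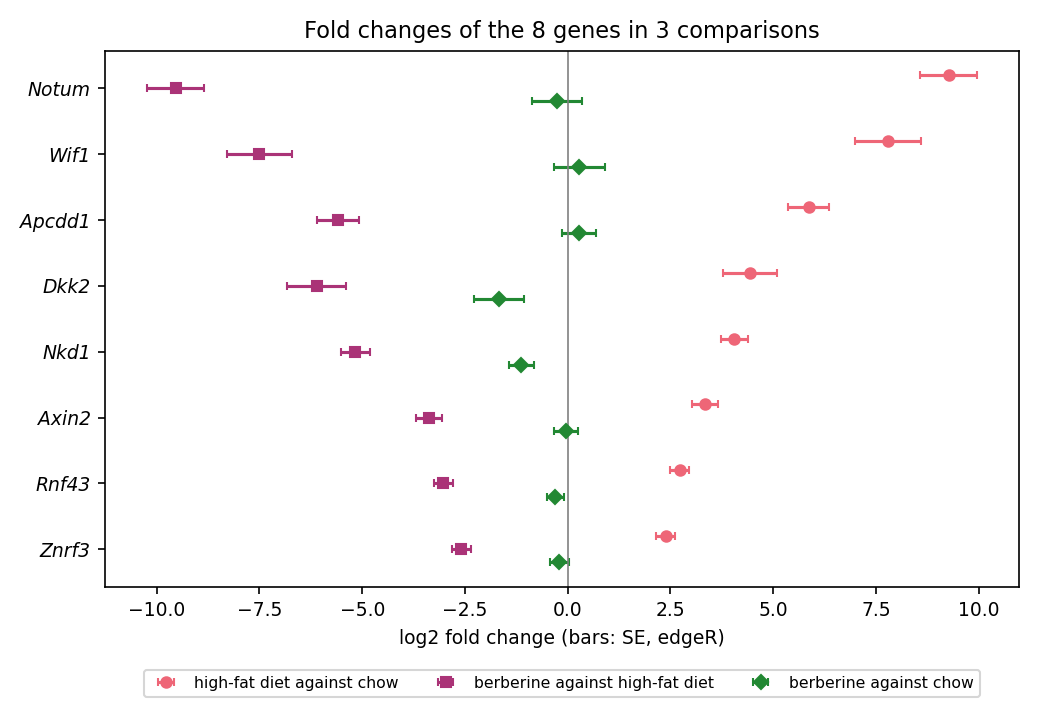
Log2 fold changes of the 8 inhibitors in the 3 comparisons, with bars for the SE from edgeR. Notum, at 9.27 and -9.54, lies farthest from 0 in both comparisons with the high-fat diet group, and Znrf3, at 2.39 and -2.59, nearest, while the differences between berberine and chow lie between -1.67 and 0.28.

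The order of the inhibitors by FPKM, which divides by transcript length and so allows levels of different genes to be compared, differed between groups. In chow the intracellular inhibitors Nkd1 (7.99 ± 1.73 FPKM) and Axin2 (5.88 ± 2.42) and the ligase Rnf43 (4.32 ± 1.22) led, with overlapping ranges, and their lowest library was above the highest of Znrf3 (1.36 ± 0.461). Wif1 followed at 0.996 ± 0.676, Dkk2 at 0.563 ± 0.41, Apcdd1 at 0.354 ± 0.109 and Notum last at 0.169 ± 0.136, each overlapping with its neighbour. With berberine Axin2 led at 5.79 ± 0.532 FPKM, above the range of Nkd1 (3.72 ± 0.89) and Rnf43 (3.55 ± 0.609), which overlapped. Notum was again last, at 0.137 ± 0.0879 FPKM.

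With high-fat diet Wif1 and Notum stood among the first 3 of the order. Wif1 was at 238.8 ± 160.5 FPKM, Nkd1 at 143.7 ± 60.8 and Notum at 114.4 ± 32.4, and these 3 overlapped. All 3 were above the range of Axin2 (64.5 ± 13.0), which was above that of Rnf43 (31.1 ± 5.96) and Apcdd1 (22.2 ± 6.1). Dkk2 (13.6 ± 4.59) and then Znrf3 (7.73 ± 0.827) lay below, without overlap. Summed over the 8 genes, a library held 17.3 to 26.7 FPKM in chow, 473.1 to 919.6 with high-fat diet and 14.3 to 17.6 with berberine. Wif1 made up 4.6% of the summed mean in chow, 37.5% with high-fat diet and 7.41% with berberine, and Notum 0.783%, 18.0% and 0.847%.

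Set against Axin2 in the same library, the inhibitors differed in how their levels shifted between groups. The FPKM ratio of Notum to Axin2 was 0.0171 to 0.0388 in chow, 1.34 to 2.94 with high-fat diet and 0.0154 to 0.0378 with berberine. Wif1 went from 0.0399 to 0.355 in chow to 1.69 to 8.25 with high-fat diet. Both ratios were thus higher in every high-fat diet library than in any other. The same held for Apcdd1, at 0.244 to 0.571 with high-fat diet and at most 0.124 in chow and 0.119 with berberine. For Nkd1, Dkk2 and Znrf3 the ratios with high-fat diet overlapped with those in chow. For Rnf43 the ratio was 0.502 to 1.55 in chow, 0.376 to 0.582 with high-fat diet and 0.527 to 0.808 with berberine, so the groups overlapped.

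The 3 high-fat diet libraries did not rank alike across the 8 genes. Replicate 1 was the highest for Notum, Wif1, Nkd1, Znrf3, Apcdd1 and Dkk2, but it was the lowest for Axin2 and Rnf43. Axin2 was highest in replicate 3 and Rnf43 in replicate 2. Between the highest and the lowest library the ratio was 3.11 for Wif1, 2.09 for Nkd1, 1.96 for Dkk2 and 1.71 for Notum, and 1.59 or less for the other 4. The general epithelial markers summed to 8920.8 CPM in replicate 1, 11737.3 in replicate 2 and 10970.5 in replicate 3. Smooth muscle markers summed to 1668.5, 2541.2 and 7842.6 CPM and goblet cell markers to 6704.6, 4249.2 and 1030.0 CPM in the same order. The part of these cell types in the order of the inhibitors was not tested.

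**Figure D3:**
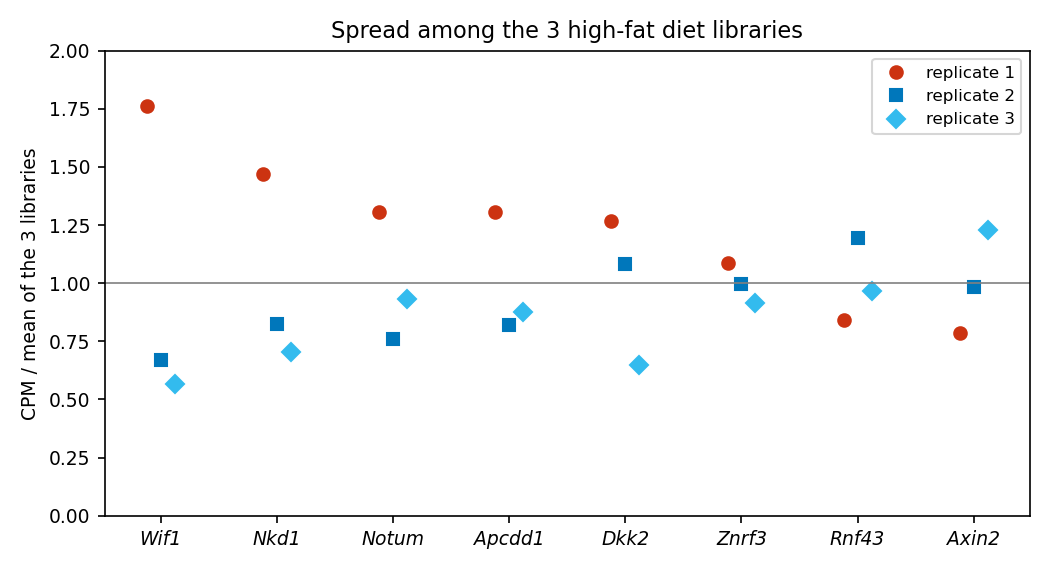
CPM of each inhibitor in the 3 high-fat diet libraries divided by their mean, with 1 point per library and a line at a ratio of 1. Replicate 1 is the highest for 6 of the 8 genes and the lowest for Axin2 and Rnf43, and Wif1 has the widest spread, with a ratio of 3.11 between its highest and lowest library.

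Markers of 11 cell types were counted in the same comparisons, where 15.2% of all genes were called higher and 16.6% lower with high-fat diet against chow, and 15.8% higher and 14.9% lower with berberine against high-fat diet. All 8 absorptive colonocyte markers tested, such as Aqp8 and Slc26a3, fell with high-fat diet against chow, and their sum was 4789.1 to 12285.7 CPM in chow, 671.0 to 1255.4 with high-fat diet and 3698.1 to 5451.1 with berberine. Of 8 goblet cell markers 5 fell, with sums of 10400.6 to 31582.3, 1030.0 to 6704.6 and 14523.1 to 26595.3 CPM. Of 10 smooth muscle markers 5 fell, from 9981.2 to 13892.8 CPM in chow to 1668.5 to 7842.6 with high-fat diet, with 4933.3 to 5878.7 in berberine. Of 10 general epithelial markers 1 rose and 2 fell, near the share of all genes, and their sum was 13013.5 to 13564.9 CPM in chow, 8920.8 to 11737.3 with high-fat diet and 11457.3 to 13698.0 with berberine. Fibroblast and matrix markers summed to 1221.8 to 1716.9, 939.0 to 1521.1 and 1229.2 to 1813.5 CPM, and 3 of 10 fell with high-fat diet. Of 8 squamous epithelial markers tested 2 rose with high-fat diet against chow, but the median log2 fold change was -0.03, with a range of -5.39 to 3.11. With berberine against high-fat diet 2 fell, with a median of -4.28. The 8 squamous markers summed to 15.3 to 353.3 CPM in chow, 109.6 to 215.1 with high-fat diet and 14.8 to 34.3 with berberine. Chow and high-fat diet thus overlapped.

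Leukocyte markers moved mostly the other way from the inhibitors. Of 9 tested 1 rose and 5 fell with high-fat diet against chow, and 5 rose and 1 fell with berberine against high-fat diet, with sums of 462.3 to 579.5, 262.1 to 439.5 and 678.7 to 906.4 CPM. Of 9 striated muscle markers 6 fell with high-fat diet, with sums of 37.6 to 1616.0 CPM in chow, 8.72 to 25.9 with high-fat diet and 15.2 to 20.8 with berberine. Of 7 adipocyte markers 1 fell with high-fat diet and 4 rose with berberine against high-fat diet, with sums of 106.4 to 240.5, 44 to 51.8 and 74.7 to 828.4 CPM. Of 7 endothelial markers 2 fell with high-fat diet (113.6 to 150.0 CPM in chow, 88.5 to 146.3 with high-fat diet and 130.5 to 170.8 with berberine), and of 5 enteric neuron and glia markers 2 fell (77.7 to 103.1, 30.6 to 54.2 and 54.7 to 70.3 CPM). The only markers at 0 throughout a group were of striated muscle, Myh4 and Pvalb with high-fat diet and Myh1 with berberine. The part of these 11 lists in the levels of the inhibitors was not tested.

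Other genes of the pathway were counted in lists made with earlier results of these data known. Genes low in chow and berberine, such as Wnt10a, may have passed the filter of 1 FPKM through high-fat diet alone. For such genes a rise was favoured in advance, and the medians of these lists share that limit. Of 19 Wnt ligands only 5 were expressed highly enough to test. Wnt10a rose from 0.745 ± 0.285 CPM in chow to 69.1 ± 23.7 with high-fat diet (log2 6.53 ± 0.43, edgeR adjusted p = 7.87e-05) and Wnt6 from 2.48 ± 1.47 to 125.1 ± 54.0 (log2 5.65 ± 0.54, edgeR adjusted p = 0.000305). Both fell with berberine against high-fat diet, to 0.758 ± 0.241 and 1.77 ± 0.39 CPM, while Wnt4, Wnt5a and Wnt5b did not pass in either comparison. The median log2 fold change of the 5 ligands was 1.12 with high-fat diet against chow. Of 13 receptors and co-receptors tested, 3 rose and 4 fell with high-fat diet, with a median of -0.38. Over all genes tested 15.2% were called higher and 16.6% lower in that comparison. The receptor Fzd10 rose by a log2 of 4.56 ± 0.68 and Fzd6 by 0.76 ± 0.14, whereas the co-receptor Lrp6 fell by 0.79 ± 0.14 and Fzd5 by 1.59 ± 0.31 on the log2 scale.

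R-spondins amplify Wnt signalling through Lgr receptors by holding Rnf43 and Znrf3 back. Of the 4 genes of that list tested, Lgr5, a marker of crypt stem cells, rose from 1.64 ± 0.669 to 51.3 ± 20.6 CPM with high-fat diet and Lgr6 from 0.81 ± 0.876 to 39.6 ± 14.6. Lgr4 fell from 150.9 ± 27.0 to 71.1 ± 4.97 CPM, and the only R-spondin tested, Rspo3, did not pass (log2 -1.68 ± 0.75, edgeR adjusted p = 0.121). The median over these 4 genes was 1.94.

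For inhibitors outside the 8, the counts called with high-fat diet against chow stood beside 15.2% of all genes called higher and 16.6% lower, and with so few genes nothing is read from them. Of 8 other secreted or membrane inhibitors tested, Dkk3 (log2 1.48 ± 0.29) and Tpbg (2.34 ± 0.5) rose with high-fat diet against chow, and Sfrp1 (-2.3 ± 0.54) and Frzb (-1.33 ± 0.32), which bind Wnt proteins outside the cell, fell. The median of that list was 0.27. Of 10 other intracellular inhibitors tested, the co-repressor Tle1 rose (log2 1.14 ± 0.19) and Nkd2, Dact3 and Tle2 fell, with a median of -0.26. Nkd2, the paralog of Nkd1, went from 22.4 ± 5.36 CPM in chow to 5.07 ± 3.95 with high-fat diet and was at 6.95 ± 2.08 with berberine. With berberine against high-fat diet, 15.8% of all genes were called higher and 14.9% lower. In that comparison 1 rose and 2 fell among the 8 secreted or membrane inhibitors. Among the 10 intracellular ones 2 fell and none rose.

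With high-fat diet against chow 15.2% of all genes were called higher and 16.6% lower. In the destruction complex, which Axin2 joins, 1 of 6 genes tested rose and none fell (median 0.18). That gene was Gsk3b, the kinase that marks beta-catenin for degradation, at 22.5 ± 2.97 CPM in chow and 86.9 ± 10.6 with high-fat diet. Unlike the 8 inhibitors it was not lower with berberine, at 91.0 ± 2.96 CPM, and it was called higher than in chow (log2 2.02 ± 0.14, edgeR adjusted p = 0.00369). Axin1, the paralog of Axin2, and Apc did not pass, with log2 fold changes of 0.03 ± 0.12 and 0.12 ± 0.28 for high-fat diet against chow. Beta-catenin itself, Ctnnb1, gave 0.12 ± 0.27. Among 11 genes of beta-catenin and its partners 4 rose and 1 fell (median 0.19): Lef1 rose by a log2 of 2.91 ± 0.31 and Tcf7 by 1.56 ± 0.3, and Tcf7l2, the main Tcf factor of the intestinal epithelium, fell by 1.18 ± 0.23.

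Most Wnt target genes other than the inhibitors rose with high-fat diet. Of these, Lgr5, Lgr6, Lef1 and Tcf7 are counted in other lists too. All 20 were tested, and 17 rose and 1 fell with high-fat diet against chow (median 1.97), where 15.2% of all genes rose and 16.6% fell. For berberine against high-fat diet 17 were lower and 1 higher, where 14.9% of all genes were called lower and 15.8% higher. Prox1, a transcription factor, went from 7.82 ± 0.873 to 377.6 ± 25.7 CPM with high-fat diet, and Smoc2, a matrix protein of stem cells, from 21.6 ± 2.88 to 200.4 ± 53.9. Tnfrsf19 went from 8.59 ± 2.66 to 54.3 ± 12.8 CPM. Cdx1, an intestinal identity factor, fell from 295.0 ± 11.7 to 115.7 ± 18.5 CPM and stood at 292.3 ± 25.5 with berberine. None of the 20 was called between berberine and chow with edgeR, and Gsk3b was the only gene of the 8 lists that was.

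**Figure D4:**
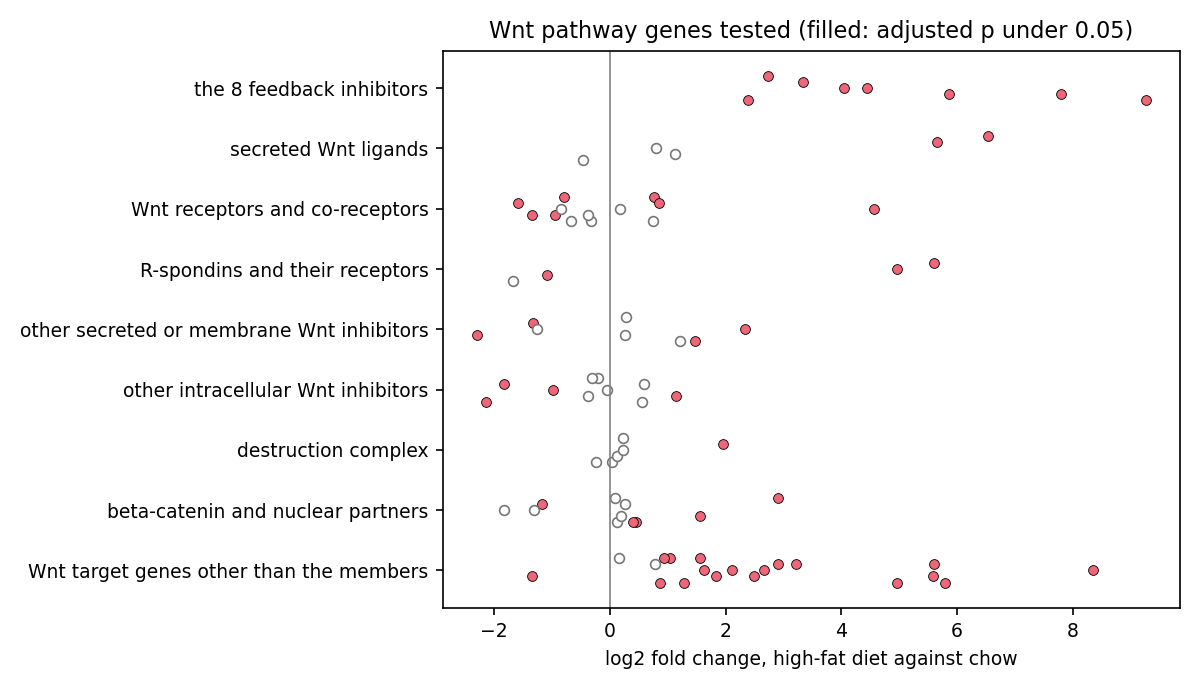
Log2 fold changes for high-fat diet against chow of the tested genes of each Wnt pathway list and of the 8 inhibitors, with 1 point per gene and filled points for an edgeR adjusted p under 0.05. The 8 inhibitors lie between 2.39 and 9.27. Of 20 other targets 17 rose, where 15.2% of all genes rose. The other inhibitor lists hold called genes on both sides of 0. The 8 genes and all lists were chosen with earlier results of these data known.

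For each inhibitor the genes with the most similar pattern were found by Pearson's r of log2(CPM + 1) over the 9 libraries. The high-fat diet libraries lay apart from the other 6 for all of them, so r describes that gap first and carries no p. For Notum the leading genes were Notumos (r = 0.9982), the transcription factor gene Irx5 (0.9981) and Wnt10a (0.9975), followed by the Paneth cell defensin genes Defa34 and Defa5, which had no counts in chow or berberine and whose near-identical family members can share reads. Wif1 was led by Pnliprp1, a pancreatic lipase-related gene, at 0.9963, and also had Wnt10a among its 5 (0.994). Nkd1 was led by the laminin gene Lama5 (0.9984), which like Nkd1 had its lowest mean with berberine (56.2 ± 5.74 CPM, against 81.3 ± 12.1 in chow and 279.5 ± 51.7 with high-fat diet). Dbn1 and the Wnt target Tnfrsf19 (0.9944) came next. Axin2 was led by Sox21 (0.9972), Rnf43 by Rnase1 (0.9957), Znrf3 by Atp10a (0.9974), Apcdd1 by Nfe2l3 (0.9966) and Dkk2 by Tex15 (0.9954). S100a11 was in the first 5 of both Rnf43 and Znrf3, and Nono in those of both Znrf3 and Apcdd1. None of the 8 inhibitors was among the 5 most similar genes of another, although their 28 pairs had r between 0.932 and 0.988. The median of these pairs was 0.968, and they too reflect the gap first.

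Several genes overlap the inhibitors in the GRCm38 annotation, and whether the authors' counting used the strand of the reads is not given in the sources used here, so reads of overlapping genes cannot be told apart. Notumos, antisense to Notum (chr11:120659157-120661815), was at 0.11 ± 0.0748 CPM in chow, 48.2 ± 16.8 with high-fat diet and 0.0991 ± 0.0858 with berberine. Its log2 fold change was 8.75 ± 0.78 with high-fat diet against chow (edgeR adjusted p = 0.000242) and -8.84 ± 0.79 with berberine against high-fat diet (edgeR adjusted p = 0.000228). Myadml2os, also antisense to Notum, changed by 7.82 ± 1.19 and -7.01 ± 1.12. Within an intron of Rnf43, 1110028F11Rik went from 0.158 ± 0.0823 CPM in chow to 5.92 ± 2.31 with high-fat diet. The antisense gene Gm11670 in Axin2 was listed at up to 0.118 FPKM in chow and at 1.033, 1.406 and 1.026 FPKM with high-fat diet.

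Genes near the inhibitors were looked at after the values of the 8 had been seen. Within 100 kb of one of them, 32 other genes were tested, of which 11 rose, 4 fell and 17 did not pass with high-fat diet against chow. Without Notumos, Myadml2os and 1110028F11Rik, which overlap an inhibitor and can share its reads, 8 of 29 rose, or 27.6%. Without Gm11668 and Nod2 too, which averaged 1 FPKM or more with high-fat diet alone, 7 of 27 rose, or 25.9%, against 15.2% of all genes. Near the inhibitors other than Notum, and without 1110028F11Rik, 2 of 14 rose, or 14.3%. Neighbours of 1 inhibitor are not independent of each other. Most of those that rose lay near Notum, on chromosome 11, where 17 genes were tested, 8 rose and 1, Cenpx, fell. The 8 were the overlapping antisense genes Notumos and Myadml2os and 6 protein-coding genes. Rac3, a small GTPase, went from 5.35 ± 0.509 CPM in chow to 71.6 ± 13.9 with high-fat diet and 6.68 ± 1.33 with berberine (log2 3.74 ± 0.22 with high-fat diet against chow, edgeR adjusted p = 5.25e-05). Pycr1, an enzyme of proline synthesis, went from 6.37 ± 4.22 to 92.7 ± 66.7 CPM and stood at 5.08 ± 1.47 with berberine (log2 3.87 ± 0.63, edgeR adjusted p = 0.00277). Lrrc45 (log2 1.88 ± 0.18), Aspscr1 (1.83 ± 0.15), Mafg (1.43 ± 0.13) and Alyref (0.81 ± 0.17) rose less, and all 6 fell with berberine against high-fat diet. Sirt7, Pcyt2, P4hb, Arhgdia, Anapc11, Cbr2, Dcxr and Npb in the same window did not pass for high-fat diet against chow.

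**Figure D5:**
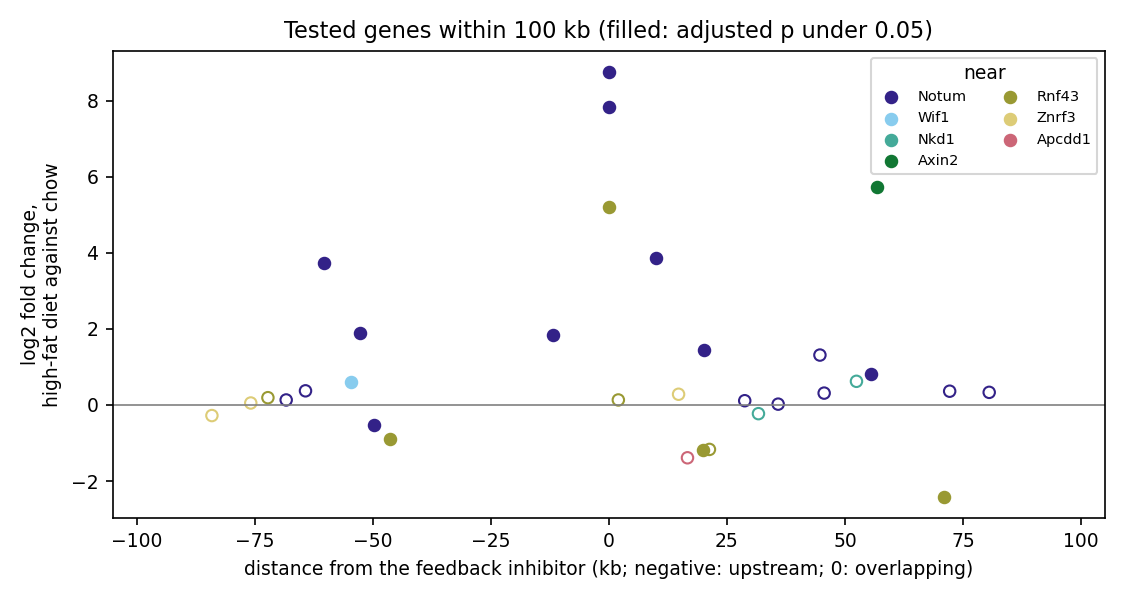
Log2 fold change, high-fat diet against chow, of each tested gene within 100 kb of an inhibitor, by its distance in kb, with negative distances upstream, 0 for overlapping genes and filled points for an edgeR adjusted p under 0.05. Genes near Notum lie on both sides of it, with Rac3 at 3.74 and Pycr1 at 3.87.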

How the data were processed

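Poly(A) RNA of 9 colonic libraries was sequenced with strand-marking and molecular identifiers, per the labels' protocols. Per the file headers, the deposited table pairs estimated counts with FPKM for every gene and library. The submitters' processing notes name StringTie 1.3.4d, HISAT2 2.0.4, cutadapt 1.9, UMI-tools, edgeR, DESeq2 and build GRCm38, without their roles. The deposited FPKM is listed at 0.0001 where the count is 0, and was set to 0.

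Estimated counts of all 9 libraries were fitted together with edgeR 4.0.16 (R 4.3.3), with TMM scaling and quasi-likelihood tests of group, after a check on simulated data. Genes averaging 1 FPKM or more were tested, and a gene is said to have risen or fallen at an adjusted p under 0.05 over all 14506. From each pathway list up to 4 called genes with the smallest p for high-fat diet against chow were named, and from similarity the 5 highest correlations, leaving out predicted gene models. Rspo3, Axin1, Apc, Ctnnb1, the Wnt genes that did not pass and the overlapping genes were named outside that rule, with their values known. The 8 genes and all lists were chosen with earlier results of these data known. Alternatives used DESeq2 1.42.0, limma 3.58.1, other scalings and filters, a replicate block, and each library left out.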

Additional observations from a re-analysis of the deposited data

How the results depend on the processing

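Under 19 alternatives for each comparison (scalings, filters, DESeq2, limma on log2 FPKM, a replicate block, and each library left out) all 8 inhibitors kept their direction and their call with high-fat diet against chow and with berberine against high-fat diet. Between berberine and chow DESeq2's Wald test called 1 of the 8, Nkd1, and every other alternative called 0. With a pseudocount of 1 FPKM in limma, which shrinks changes of low genes, the log2 fold changes were 6.6 and -6.63 for Notum, 6.78 and -6.58 for Wif1, 4.07 and -4.0 for Apcdd1, 3.2 and -3.58 for Dkk2, and Znrf3 was at -1.99 with berberine against high-fat diet. With a pseudocount of 0.1 FPKM Notum was at -8.94 there. Library totals alone shifted the median of all genes by 0.126, to 0.128, with high-fat diet against chow.

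Without berberine replicate 2 the genes called between berberine and high-fat diet numbered 2960 against 4460. Between berberine and chow 7 genes were called, 380 by DESeq2, 1 to 7 with 1 library left out, and 2 with DESeq2's size factors, a filter at 0.1 FPKM, counts divided by 4, or only the groups compared. With the replicate block 8, 8 and 0 inhibitors were called and 2 genes differed between berberine and chow. Deviations of same-numbered libraries correlated at -0.071 to 0.139 and those of other pairs at -0.193 to 0.169, so no pairing by number was seen. The labels do not say whether the numbers pair libraries, and weak correlations cannot exclude it. Depth limits Notum most, at 2.75 to 13.5 fragments per chow library and 3.0 to 11.2 per berberine library.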

Other observations

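Within 100 kb of the inhibitors other than Notum, looked at after the values had been seen, 15 genes were tested, and 3 rose and 3 fell with high-fat diet against chow. These 6 of 15 compare with 31.8% of all genes called in either direction. Without 1110028F11Rik, which overlaps Rnf43 and can share its reads, 2 of 14 rose, or 14.3%, against 15.2% of all genes. Lemd3 near Wif1 rose by a log2 of 0.6 ± 0.11 and the processed pseudogene Gm11668 near Axin2 by 5.74 ± 1.0. Near Rnf43 the overlapping 1110028F11Rik rose and Lpo (-2.41 ± 0.4), Mtmr4 (-0.89 ± 0.23) and Mir142hg (-1.18 ± 0.38) fell. No tested gene near Nkd1, Znrf3 or Apcdd1 was called for high-fat diet against chow. Among them was Kremen1 near Znrf3, a co-receptor of Dickkopf proteins (log2 0.28 ± 0.19, edgeR adjusted p = 0.295). With berberine against high-fat diet, Ccdc117 near Znrf3 was called higher (log2 0.89 ± 0.22, edgeR adjusted p = 0.0176).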
